A study of Mus musculus with 12 samples.

Results

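Egr1, Egr3, Nr4a1, Nr4a2, Nr4a3, Ier2, Ier3, Btg2, Arc and Maff are immediate early genes, which cells switch on within minutes of a stimulus without making new protein first. They are described here in mouse spinal cord 9 h after injury. Every probe set whose only gene symbol in the array annotation was one of these 10 symbols was taken. That gave 13 of the 20380 probe sets that named a single gene, and 10 of 12393 genes. Btg2, Nr4a2 and Nr4a3 each had 2 probe sets and the others 1. Of the 13, 12 passed the filter on low values and were tested, and the other, an Nr4a3 probe set, is given by its values alone.

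All animals were wild-type female C57BL/6 mice aged 10 weeks. Injured mice had the cord cut across 80% of its width after laminectomy, and sham mice had the laminectomy alone (the sample titles call their cords naive). From 2.5 cm of cord around the site, an aliquot of the Dounce homogenate gave total RNA, and a sucrose gradient of the remainder gave polysome-bound RNA, which is mRNA loaded with several ribosomes. Each of the 4 groups (injured polysome-bound, sham polysome-bound, injured total and sham total) had 3 arrays, labelled as biological replicates, and unoperated cord was not among them.

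Immediate early genes are read out by transcription factors that already sit in the cell, such as SRF with its ELK partners and CREB, once MAP kinase or calcium signals reach them. Their mRNAs are short-lived as a rule. EGR proteins are zinc finger transcription factors and NR4A proteins are orphan nuclear receptors that bind DNA without a classical ligand. IER2 is a nuclear protein, IER3 a small protein linked to survival signalling, BTG2 an antiproliferative protein that recruits the CCR4-NOT deadenylase, and MAFF a small MAF factor that pairs with CNC and BACH proteins. Arc is made at active synapses of neurons, where it acts in the internalisation of AMPA receptors.

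Promoter sequence upstream of the start was available from RefSeq (GRCm38.p6) for 6 of the 10 genes, in 8 entries, and was read for the 250 bases before the start. The 5 stretches printed here belong to genes whose RNA rose in the injured cord (Ier3, Maff, Btg2) and to Nr4a1 and Nr4a3, for which no rise was called as deposited. Capitals mark matches, on either strand, to the CRE core TGACG, the full CRE TGACGTCA, the EGR site GCGNGGGCG and the kappa-B motif. The full CRE holds the core on both strands, so each one counts as 2 core matches. The CArG box and the NR4A element AAAGGTCA were also searched.
Ier3, chr17:35821463-35821712, plus strand: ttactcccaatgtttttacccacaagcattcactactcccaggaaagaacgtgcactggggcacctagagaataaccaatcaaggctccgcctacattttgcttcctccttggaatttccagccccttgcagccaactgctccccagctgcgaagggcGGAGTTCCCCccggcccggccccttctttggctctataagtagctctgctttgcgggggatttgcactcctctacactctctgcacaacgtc
Maff, chr15:79347270-79347519, plus strand: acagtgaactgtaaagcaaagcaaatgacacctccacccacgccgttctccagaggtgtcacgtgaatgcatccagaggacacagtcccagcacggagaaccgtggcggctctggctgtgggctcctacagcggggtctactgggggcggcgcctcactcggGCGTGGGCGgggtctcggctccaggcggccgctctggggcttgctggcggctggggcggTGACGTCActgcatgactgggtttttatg
Btg2, chr1:134079156-134079405, minus strand: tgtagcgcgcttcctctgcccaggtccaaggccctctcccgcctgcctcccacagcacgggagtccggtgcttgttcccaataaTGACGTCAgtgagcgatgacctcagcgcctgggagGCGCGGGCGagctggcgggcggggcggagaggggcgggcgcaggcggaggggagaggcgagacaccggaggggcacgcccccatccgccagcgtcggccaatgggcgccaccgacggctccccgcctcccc
Nr4a1, chr15:101266596-101266845, plus strand: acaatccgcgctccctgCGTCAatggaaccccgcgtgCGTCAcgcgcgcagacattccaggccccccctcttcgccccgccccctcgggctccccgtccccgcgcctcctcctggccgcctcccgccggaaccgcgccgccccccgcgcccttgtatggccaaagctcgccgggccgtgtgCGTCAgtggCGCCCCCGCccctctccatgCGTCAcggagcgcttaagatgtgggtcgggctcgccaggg
Nr4a3, chr4:48045055-48045304, plus strand: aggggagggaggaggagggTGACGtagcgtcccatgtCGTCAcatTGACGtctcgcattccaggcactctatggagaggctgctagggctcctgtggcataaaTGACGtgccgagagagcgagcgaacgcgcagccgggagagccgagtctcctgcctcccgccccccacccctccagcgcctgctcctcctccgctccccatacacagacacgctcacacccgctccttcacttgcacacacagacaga
Of 32851 promoter stretches of this length, 17.8% held the CRE core, 1.55% the full CRE, 4.7% the EGR site, 3.9% the kappa-B motif, 1.47% the CArG box and 1.34% the NR4A element. Nr4a1, Nr4a2 and Nr4a3 each had 4 CRE cores, none of them part of a full CRE. Btg2 had 1 full CRE and 1 EGR site, as did the Maff entry shown, and Nr4a1 and Nr4a2 also had 1 EGR site each. Ier3 had neither a CRE nor an EGR site, and 1 kappa-B match. Another Maff entry had 1 core and 1 kappa-B match, and the remaining Maff entry no match. No CArG box or NR4A element was in any of the 8 entries, which says only that these letters were not in this window.

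The deposited values lie on a log2 scale, so a difference is the logarithm of a fold change. Levels of different probe sets are not comparable, and only differences of the same probe set between arrays were tested. The highest of 27 probe sets for transcripts absent from mouse was taken as the background of an array. Markers of neurons, astrocytes and oligodendrocytes were above it on all 12 arrays, as the tissue label requires. The arrays were not on a common level: their medians averaged 7.18 (injured) and 7.25 (sham) for polysome-bound RNA, against 7.78 (injured) and 7.76 (sham) for total RNA. The 18 spiked hybridisation controls read lower on the injured arrays than on the sham arrays, by 0.43 in polysome-bound RNA and 0.55 in total RNA. The Gapdh 3′ minus 5′ difference, which grows as RNA is shortened from its 5′ end or copied incompletely, averaged 2.83 ± 0.27 on injured and 0.87 ± 0.03 on sham polysome arrays, and 1.40 ± 0.22 on injured and 0.23 ± 0.05 on sham total RNA arrays (SD, n = 3). Each of these control differences had an exact permutation p of 0.1, the smallest that 3 arrays against 3 allow, and their part in the results was not tested. In bulk tissue, fewer cells of a type and less RNA per cell cannot be told apart.

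In total RNA, the injured cord held more Ier3, Egr1, Maff, Btg2 and Ier2 RNA than the sham cord, while Arc, Egr3 and Nr4a3 were lower as deposited but not with the arrays scaled to the hybridisation controls. Of the 12 tested probe sets, 7 were higher in injured cord and 3 lower at an adjusted p under 0.05 (limma, Benjamini-Hochberg over 16555 probe sets). Over all probe sets tested, 37.4% were called higher and 22.4% lower, so a call by itself was common. For the same 7 every injured array lay above every sham array and for the same 3 below, which held for 46% and 26.5% of all probe sets. The median difference was 0.24 over the members and 0.08 over all probe sets. Scaled to the hybridisation controls instead, the median of all probe sets moved to 0.63, and the member counts to 11 higher and 0 lower.

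**Figure D1:**
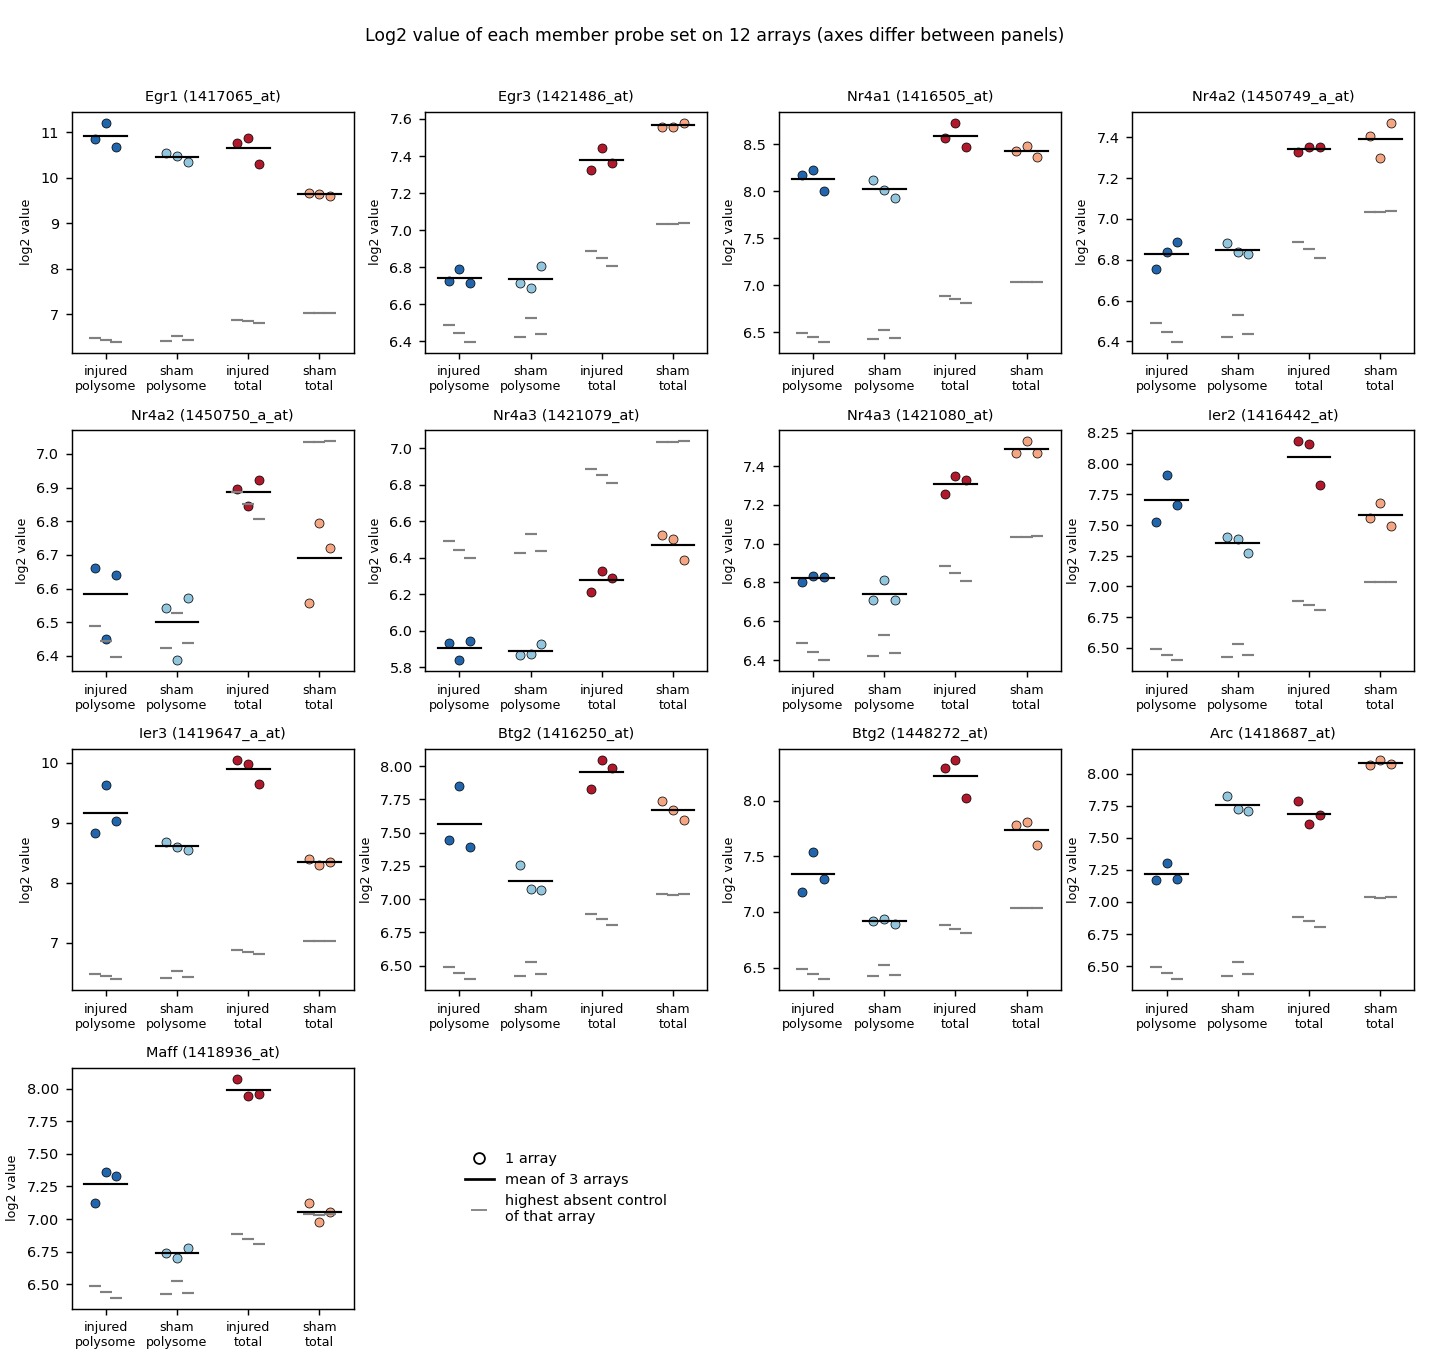
Log2 value (vertical axis, a separate scale in each panel) of the 13 member probe sets on the 3 arrays of each group, with the group mean as a black line and each array's background as a grey dash. Ier3, Egr1 and Maff separate injured from sham arrays in both fractions, Arc lies lower on injured arrays as deposited, and the Nr4a3 probe set 1421079_at lies below background on all 12 arrays.

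Ier3 had the largest difference among the members. It read 10.05, 9.98 and 9.65 on the injured total RNA arrays, against 8.39, 8.29 and 8.34 on the sham total RNA arrays. Every injured array was above every sham array, by more than the spread in either group. The difference was 1.55 (SE 0.15, 2.93-fold, limma adjusted p = 3.61e-06), above that of 99.6% of all probe sets.

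Egr1, the family member best known as an injury- and growth-factor-responsive transcription factor, read 10.78, 10.88 and 10.32 on the injured total RNA arrays, against 9.67, 9.65 and 9.60 on the sham arrays. The groups were far apart, with injured replicate 3 the lowest of the injured arrays. The rise was 1.01 (SE 0.14, 2.02-fold, limma adjusted p = 4.56e-05).

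Maff read 8.08, 7.94 and 7.95 on the injured total RNA arrays, against 7.12, 6.98 and 7.05 on the sham arrays. The injured values lay close together and well above the sham values, of which 2 of 3 were above background. Maff rose by 0.94 (SE 0.07, 1.92-fold, limma adjusted p = 2.66e-07).

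Ier2 and Btg2 rose less. Ier2 read 8.18, 8.16 and 7.83 on the injured total RNA arrays, against 7.56, 7.68 and 7.49 on the sham arrays, a difference of 0.48 (SE 0.10, limma adjusted p = 0.00141). Its groups did not overlap, although injured replicate 3 came near the highest sham array. For Btg2 both probe sets were called: 1448272_at was higher by 0.49 (SE 0.10, limma adjusted p = 0.000749) and 1416250_at by 0.29 (SE 0.10, limma adjusted p = 0.0273). The second probe set read 7.83, 8.05 and 7.98 on the injured arrays and 7.74, 7.67 and 7.59 on the sham arrays, so the groups only just separated. Its call was lost in 4 of 25 alternative settings, whereas those of Ier3, Egr1, Maff, Ier2 and the other Btg2 probe set held in all of theirs.

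Arc, whose mRNA is moved to dendrites and translated at synapses, went the other way as deposited. It read 7.78, 7.61 and 7.68 on the injured total RNA arrays, against 8.07, 8.11 and 8.08 on the sham arrays. All 3 injured arrays were below all 3 sham arrays, which differed among themselves by far less than the gap. Arc fell by 0.39 (SE 0.06, limma adjusted p = 0.000104), and by 0.48 relative to the median of all probe sets. But with arrays scaled to the hybridisation controls the value was 0.15 and not called, while the median of all probe sets was 0.63. Direction and call held in 24 of 25 alternatives.

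Egr3 and Nr4a3 were slightly lower in injured total RNA as deposited, at -0.19 (SE 0.05, limma adjusted p = 0.0053) and -0.18 (SE 0.05, limma adjusted p = 0.00596), and were higher by 0.36 and 0.37 with the arrays scaled to the hybridisation controls. After quantile normalization the Nr4a3 difference was -0.11 (over 12 arrays) or -0.12 (within a fraction), with no call (limma adjusted p up to 0.0905). Egr3, an EGR factor induced by synaptic activity, read 7.32, 7.44 and 7.36 on the injured arrays, against 7.56, 7.56 and 7.58 on the sham arrays. The Nr4a3 probe set 1421080_at read 7.25, 7.35 and 7.33 on the injured arrays, against 7.47, 7.53 and 7.47 on the sham arrays. Neither pair of groups overlapped, but both gaps were small. Probe sets of like brightness also had a median difference of -0.09, and the Egr3 and Nr4a3 differences lay at percentiles 31.7 and 33.7 of those 1655 probe sets. By the same measure Arc lay at percentile 6 of the probe sets of its brightness, and Egr1, Ier3 and Maff at 98.7 to 99.5 of theirs.

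Nr4a1, an NR4A receptor induced by many signals, was not called. It read 8.56, 8.73 and 8.47 on the injured total RNA arrays, against 8.43, 8.48 and 8.37 on the sham arrays, and the groups overlapped. Its difference was 0.16 (SE 0.08, limma adjusted p = 0.0953), and was called in 4 of 25 alternatives, among them at 0.22 without injured total replicate 3.

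The 2 probe sets of Nr4a2, a receptor needed for dopamine neurons, disagreed in total RNA. With 1450749_a_at the injured arrays read 7.33, 7.35 and 7.35 and the sham arrays 7.41, 7.30 and 7.47, a difference of -0.05 that was not called and was 0.50 with arrays scaled to the hybridisation controls. With 1450750_a_at the values were 6.90, 6.85 and 6.92 on the injured arrays and 6.56, 6.79 and 6.72 on the sham arrays, which were at background on all 3, so no fold is given although limma called the difference of 0.20 (adjusted p = 0.0291). The untested Nr4a3 probe set 1421079_at read 6.21 to 6.33 on the injured and 6.39 to 6.52 on the sham total RNA arrays, all at background.

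On polysomes, Ier3, Maff, Egr1, Btg2 and Ier2 were also higher in the injured cord, and Arc was lower as deposited. Of the 12 probe sets, 6 were higher and 1 lower at an adjusted p under 0.05, where 11.8% of all probe sets were called higher and 27% lower. For those 6 every injured array lay above every sham array and for that 1 below, which held for 15.5% and 30.6% of all probe sets. The member median was 0.23, against -0.05 over all probe sets, and 11 of the 12 members lay above that median. With arrays scaled to the hybridisation controls, the median of all probe sets was 0.38, and 11 members were higher and 0 lower.

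Ier3 read 8.83, 9.63 and 9.03 on the injured polysome arrays, against 8.69, 8.60 and 8.55 on the sham polysome arrays. The injured arrays were all above the sham arrays, but their spread was wide and replicate 1 came close to the sham level. Ier3 rose by 0.55 (SE 0.15, 1.47-fold, limma adjusted p = 0.0116), and by 0.32 without injured polysome replicate 2.

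Egr1 read 10.86, 11.22 and 10.68 on the injured polysome arrays, against 10.55, 10.49 and 10.35 on the sham arrays. Its groups did not overlap, and the lowest injured array was near the highest sham array. The difference was 0.46 (SE 0.14, 1.37-fold, limma adjusted p = 0.0179). The call was lost in 3 of 25 alternative settings, with array weights, without sham polysome replicate 3 and without injured polysome replicate 2 (0.306), with limma adjusted p-values up to 0.074.

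Maff read 7.12, 7.36 and 7.33 on the injured polysome arrays, against 6.74, 6.70 and 6.78 on the sham arrays. These groups were well apart. Maff rose by 0.53 (SE 0.07, 1.44-fold, limma adjusted p = 4.26e-05), and the call held in all 25 alternatives.

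Both Btg2 probe sets rose on polysomes, by 0.43 for 1416250_at (SE 0.10, limma adjusted p = 0.00464) and 0.42 for 1448272_at (SE 0.10, limma adjusted p = 0.00353). The 1448272_at probe set read 7.18, 7.54 and 7.30 on the injured polysome arrays and 6.92, 6.94 and 6.90 on the sham arrays, with a clear gap. Ier2 read 7.53, 7.91 and 7.66 on the injured polysome arrays, against 7.40, 7.38 and 7.27 on the sham arrays, and was higher by 0.35 (SE 0.10, limma adjusted p = 0.0157). Its groups did not overlap, and the call was lost without injured polysome replicate 2 (0.242, limma adjusted p = 0.0634) and without sham polysome replicate 3 (0.306, limma adjusted p = 0.0636).

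Arc read 7.17, 7.30 and 7.18 on the injured polysome arrays, against 7.82, 7.73 and 7.71 on the sham arrays. The gap was wider than the spread within either group. Arc fell by 0.54 (SE 0.06, limma adjusted p = 1.8e-05) as deposited, at percentile 4.6 of all probe sets. It fell by 0.11 with no call when arrays were scaled to the hybridisation controls, where the median of all probe sets was 0.38. The call held in 24 of 25 alternatives.

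The remaining members gave no call on polysomes, and their groups overlapped. The differences were 0.11 for Nr4a1 (limma adjusted p = 0.293), 0.08 for Nr4a3 (limma adjusted p = 0.221, but called higher in 4 of 24 alternatives, all of them other scalings of the arrays), -0.02 and 0.08 for the Nr4a2 probe sets, and 0.01 for Egr3 (limma adjusted p = 0.92). Nr4a1 read 8.17, 8.23 and 7.997 on the injured polysome arrays and 8.12, 8.01 and 7.92 on the sham arrays. Egr3 read 6.73, 6.79 and 6.72 on the injured polysome arrays and 6.72, 6.69 and 6.80 on the sham arrays, with no gap at all. The Nr4a2 probe set 1450749_a_at, at -0.02 as deposited, was at 0.41 with arrays scaled to the hybridisation controls.

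**Figure D2:**
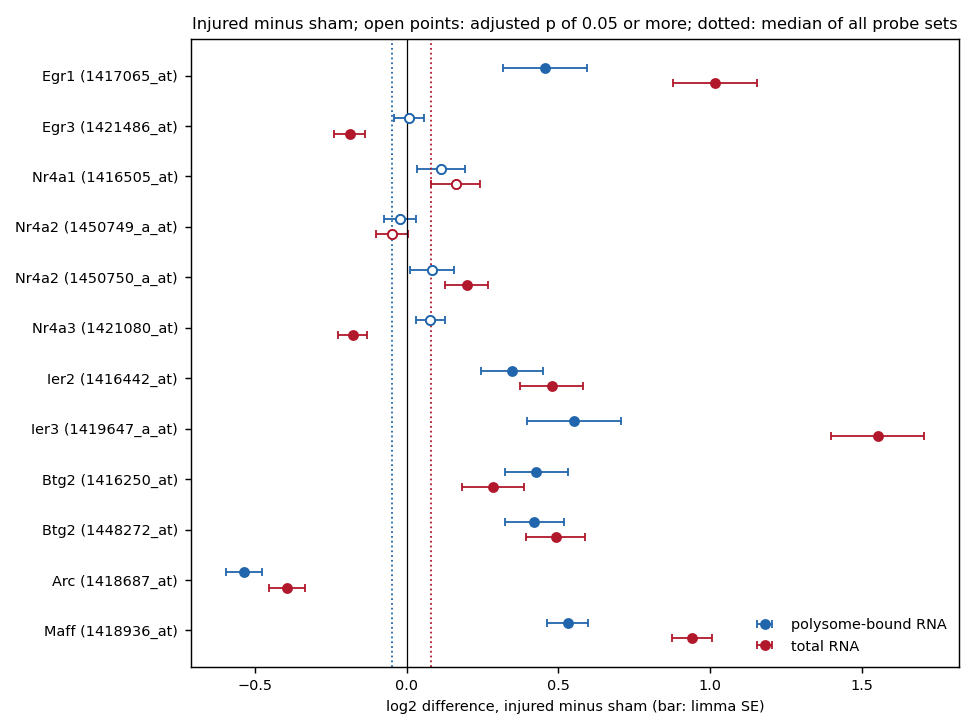
Log2 difference, injured minus sham, of the 12 tested member probe sets in polysome-bound RNA (blue, upper point of each pair) and total RNA (red), with limma standard errors and the median of all probe sets as dotted lines. Ier3 reaches 0.55 on polysomes and 1.55 in total RNA, whereas Arc, at -0.54 and -0.39, is the only member called lower in both fractions as deposited; scaled to the hybridisation controls its total RNA value is 0.15.

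The injured polysome arrays were less alike than the others, and replicate 2 was the highest of the 3 in 10 of the 12 members. Over all probe sets it was the highest in 49.7%. Replicate 1 was the lowest in 7 members and in 52.4% of all probe sets. The array weights that limma derived were 0.22 for replicate 1 and 0.41 for replicate 2, while those of the other arrays lay between 0.87 and 2.01. Without replicate 2 the number of members called higher on polysomes was 4, and without sham polysome replicate 3 it was also 4; without injured polysome replicate 1 or 3 it was 6.

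The difference between the injury changes of the 2 fractions was tested as an interaction, which uses all 4 groups and so shares its arrays with both comparisons above. Ier3, Egr1 and Maff rose by less on polysomes than in total RNA, while Egr3 and Nr4a3, near 0 on polysomes, were lower in total RNA as deposited but not with the arrays scaled to the hybridisation controls. In all, 3 probe sets were below 0 and 2 above 0 at an adjusted p under 0.05, where 37% of all probe sets were called below 0 and 13.5% above. The median over all probe sets was -0.14 and over the members -0.09.

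For Ier3 the injury change was 0.55 on polysomes and 1.55 in total RNA, an interaction of -0.999 (SE 0.22, limma adjusted p = 0.00221). Only 1.2% of all probe sets had a lower value. The call held in all 24 alternatives, with values of -1.23 to -0.73.

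For Maff the changes were 0.53 on polysomes and 0.94 in total RNA, an interaction of -0.41 (SE 0.09, limma adjusted p = 0.00305), which also held in all 24 alternatives. The Maff value lay at percentile 23.2 of all probe sets and at 14.3 of the 1656 probe sets of its brightness. For Egr1 the changes were 0.46 on polysomes and 1.01 in total RNA, an interaction of -0.56 (SE 0.20, limma adjusted p = 0.0284). This call was lost in 10 of 24 alternatives, with adjusted p-values up to 0.35. The Egr1 value lay at percentile 19.7 of the 1656 brightest probe sets, whose median was -0.32.

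For Nr4a3 the changes were 0.08 on polysomes and -0.18 in total RNA, an interaction of 0.26 (SE 0.07, limma adjusted p = 0.00698), lost in 1 of 23 alternatives. For Egr3 they were 0.01 on polysomes and -0.19 in total RNA, an interaction of 0.20 (SE 0.07, limma adjusted p = 0.0321), lost in 9 of 23. Ier2, Btg2, Nr4a1, Nr4a2 and Arc gave no interaction call, with values between -0.14 and 0.14 and standard errors of 0.08 to 0.15.

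**Figure D3:**
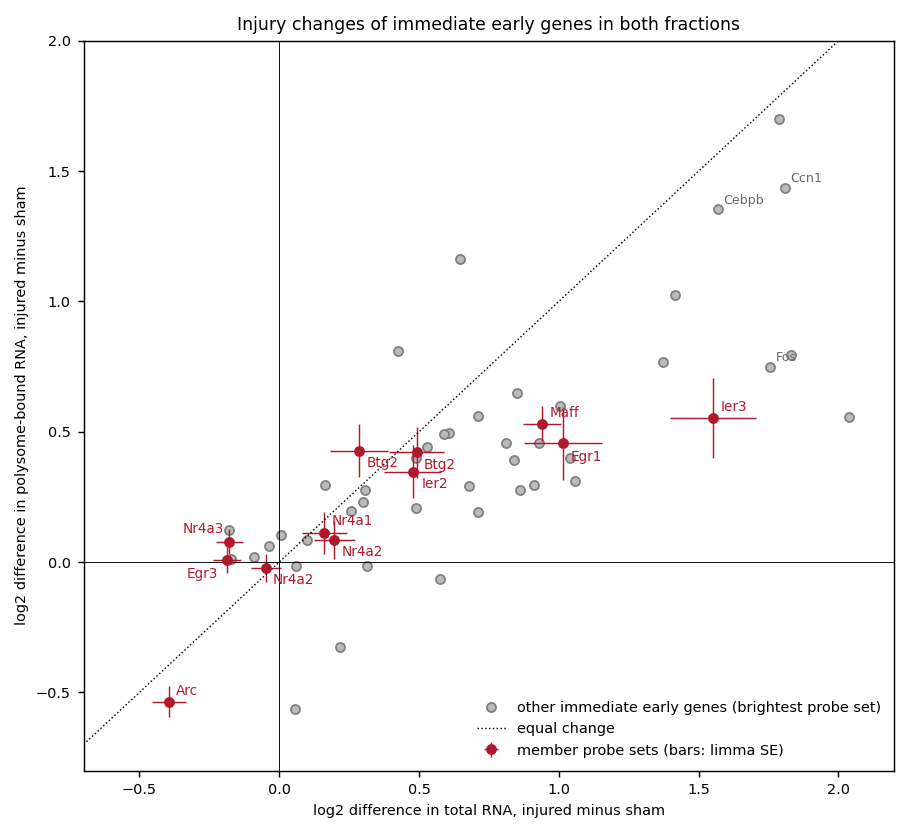
Log2 injury change in polysome-bound RNA (vertical axis) against that in total RNA (horizontal axis) for the 12 member probe sets (red, bars are limma standard errors) and 42 other immediate early genes (grey, brightest probe set). Ier3, Egr1 and Maff lie below the dotted line of equal change, while Btg2 and Arc lie near it.

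Levels on polysomes and in total RNA were then compared within each kind of cord. Since the arrays of the fractions differ in level, each difference is given relative to the median of all probe sets, which was -0.44 in injured cord and -0.35 in sham cord as deposited. Egr1 stood out among the members: in injured cord its polysome minus total difference was 0.70 above the median and in sham cord 1.18 above it. As deposited this was 0.26 in injured cord (SE 0.14, limma adjusted p = 0.088) and 0.82 in sham cord (SE 0.14, limma adjusted p = 6.46e-05). The injured value was called in 7 of 25 alternatives. It was 0.092 without injured total replicate 3, 0.114 without injured polysome replicate 2 and 0.381 without injured polysome replicate 3, and only that last value and the one without injured total replicate 2 were called among those that leave out an array. The sham value exceeded that of 98.1% of all probe sets, and its direction and call held in all 26 alternatives. Probe sets as bright as Egr1 themselves had medians of -0.07 in injured and 0.24 in sham cord as deposited, and among them Egr1 lay at percentiles 73.2 (injured) and 93.2 (sham).

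In sham cord Egr1 read 10.55, 10.49 and 10.35 on polysome arrays, against 9.67, 9.65 and 9.60 on total RNA arrays, without overlap. In injured cord it read 10.86, 11.22 and 10.68 on polysome arrays, against 10.78, 10.88 and 10.32 on total RNA arrays, with overlap. By group mean the order was injured polysome (10.92), injured total (10.66), sham polysome (10.46) and sham total (9.64), and only the step to sham total exceeded the spread of the arrays.

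Ier3 had its order turned between the cords. In injured cord it read lower on polysomes than in total RNA, at -0.73 as deposited (SE 0.15, limma adjusted p = 0.000458) and -0.29 relative to the median. With arrays centred on their medians the Ier3 difference in injured cord was -0.13 and not called (limma adjusted p = 0.395). In sham cord its 3 polysome arrays were all above its 3 total RNA arrays, by 0.27 as deposited (SE 0.15, limma adjusted p = 0.123) and 0.62 relative to the median. Probe sets of its brightness had medians of -0.35 in injured and -0.04 in sham cord as deposited, and among them Ier3 lay at percentiles 26.8 (injured) and 74 (sham). With equal-numbered sham samples treated as pairs, a pairing taken from the data, the same sham difference was called (SE 0.05, limma adjusted p = 0.000109). So was that of Ier2 (-0.23, limma adjusted p = 0.000644). A fit of the sham arrays alone without pairing gave the same member counts, 2 higher and 10 lower, so these calls were not particular to the pairing. By group mean the order was injured total (9.89), injured polysome (9.16), sham polysome (8.61) and sham total (8.34), and neighbouring groups did not overlap.

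Among the 12 probe sets, 11 were lower on polysomes than in total RNA in injured cord and the other, of Egr1, was not called, and in sham cord 1 was higher and 9 lower as deposited. Over all probe sets, 12.9% were called higher and 73.7% lower in injured cord, and 18.5% higher and 62.6% lower in sham cord. In injured cord all polysome arrays lay below all total RNA arrays for 9 members, as for 72.7% of all probe sets, and above them for no member, against 12.4%. In sham cord they lay below for 9 members and above for 2, against 65.6% and 21.3% of all probe sets. These directions turn with the scaling: with arrays centred on their medians, 5 members were higher and 1 lower in injured cord, and 6 higher and 3 lower in sham cord. The Btg2 probe set 1448272_at was lower on polysomes in both cords under all alternatives, at -0.45 in injured and -0.46 in sham cord relative to the median. Among probe sets of its brightness it lay at percentiles 27.1 (injured) and 22.2 (sham). The other Btg2 probe set, 1416250_at, differed, at 0.05 in injured and -0.18 in sham cord relative to the median. Egr3 and Nr4a3 were lower relative to the median in sham cord, at -0.48 and -0.39, and nearer to it in injured cord, at -0.19 and -0.05. Among probe sets of their brightness they lay at percentiles 21.6 and 29.5 in sham cord. Arc, Nr4a1 and Ier2 lay within 0.13 of the median in both cords.

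**Figure D4:**
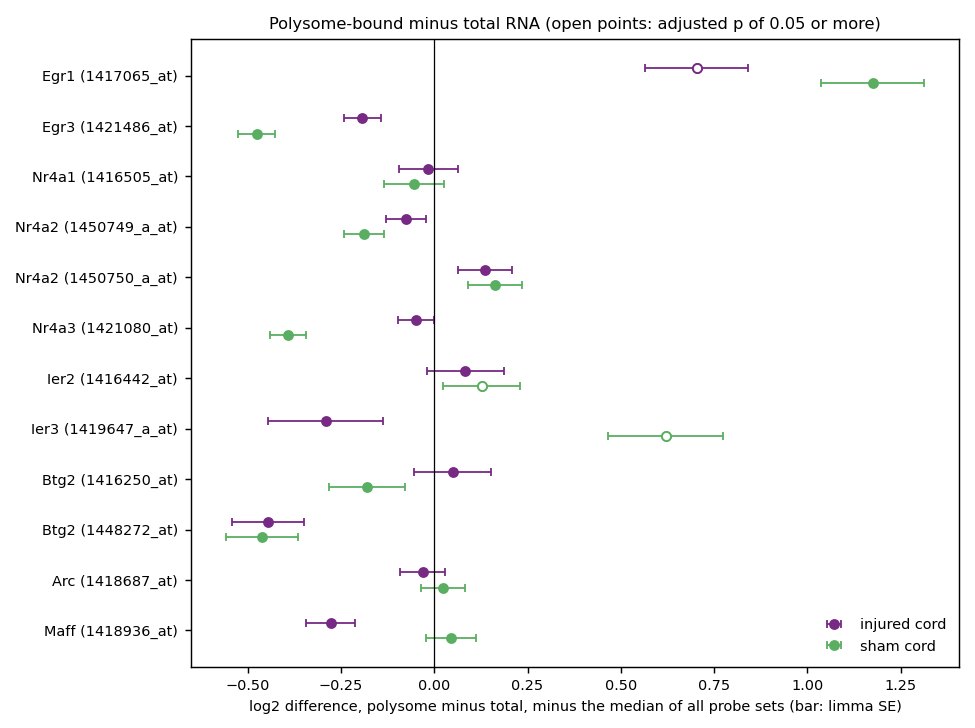
Log2 difference, polysome-bound minus total RNA, relative to the median of all probe sets (horizontal axis), for the 12 member probe sets in injured cord (purple, upper point of each pair) and sham cord (green), with limma standard errors. Egr1 lies at 0.70 and 1.18, and Ier3 at -0.29 in injured and 0.62 in sham cord; open points were not called on the values as deposited.

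Partners and relatives of the members were read from gene lists, with each gene represented by its brightest probe set. Their counts stand against 11.8% of all probe sets called higher and 27% lower on polysomes, and 37.4% higher and 22.4% lower in total RNA. Egr2, the EGR factor of myelinating Schwann cells, rose by 0.94 in total RNA (SE 0.13, limma adjusted p = 6.56e-05). On polysomes Egr2 was at background on all 3 sham arrays and at least 1.43-fold higher in the injured cord (limma adjusted p = 0.000922). Egr4 was at -0.16 in total RNA (limma adjusted p = 0.0152) and 0.00 on polysomes, with signal near background throughout. Nab2, a corepressor of EGR proteins, rose by 0.22 in total RNA (limma adjusted p = 0.0382), and Nab1 was not called.

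Of 46 other immediate early genes listed, 42 were tested. On polysomes 27 were higher and 2 lower, with a median of 0.35, and in total RNA 34 were higher and 2 lower, with a median of 0.63. Fos, an AP-1 subunit and one of the genes most like Egr1 over the arrays, rose by 0.75 on polysomes and 1.76 in total RNA, an interaction of -1.01 (SE 0.21, limma adjusted p = 0.00159). Cebpb, a basic leucine zipper factor of acute-phase genes, rose by 1.35 on polysomes and 1.57 in total RNA, and Ccn1, a matricellular protein, by 1.44 on polysomes and 1.81 in total RNA. In the interaction 3 of the 42 were above 0 and 18 below, against 13.5% and 37% of all probe sets. The lowest adjusted p-values there were those of Dusp1, a phosphatase of MAP kinases, at -0.75 (limma adjusted p = 0.00015), and Rhob, a small GTPase, at -0.62. Ptgs2, which encodes cyclooxygenase-2, was at -1.48 but at background on all sham arrays, and Dusp6, a phosphatase of ERK, was at -0.62.

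The kinases and factors that switch on immediate early genes were represented by 14 tested genes. On polysomes 5 were higher and 2 lower, and in total RNA 8 were higher and 3 lower, with medians of 0.08 and 0.21, and the 3 lower in total RNA were near the share of all probe sets. Rps6ka3, a kinase that phosphorylates CREB, rose by 0.21 on polysomes and 0.64 in total RNA, and Elk4, an SRF partner, by 0.32 on polysomes and 0.41 in total RNA. Crebbp, with the lowest adjusted p of the list on polysomes, rose by 0.39 there and by 0.25 in total RNA. Of the 3 lower in total RNA, Mrtfb had the lowest adjusted p (limma adjusted p = 2.9e-05), but was at background on all injured arrays. The 2 lower on polysomes were Map2k2, at -0.33, and Map2k1, at -0.19, although Map2k1 rose by 0.39 in total RNA.

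Of 13 tested BTG and TOB proteins and deadenylase subunits, which act with Btg2, 4 were higher and 2 lower on polysomes, and 10 higher and 2 lower in total RNA. Btg1, the nearest relative of Btg2, rose by 0.91 in total RNA (SE 0.12, limma adjusted p = 3.33e-05). Cnot2, a scaffold subunit of the deadenylase, rose by 0.58 and Cnot3 fell by 0.55 there. Among 7 tested partners of Maff, 5 were higher and 1 lower on polysomes, and 4 higher and 2 lower in total RNA. Bach1, a repressor that pairs with small MAF proteins, rose by 0.46 on polysomes and 0.65 in total RNA, and Nfe2l2, the activator of antioxidant genes that does the same, by 0.22 on polysomes and 0.59 in total RNA. Mafk, another small MAF, rose by 0.36 on polysomes and 0.52 in total RNA. The 1 lower on polysomes was Nfe2l3, at -0.44, with the lowest adjusted p of the list there (limma adjusted p = 8.63e-05). In total RNA Bach2 was lower, at -0.46 (limma adjusted p = 8.39e-05).

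Of the 3 RXR genes, whose products pair with Nr4a1 and Nr4a2, Rxra rose by 0.23 on polysomes (SE 0.06, limma adjusted p = 0.0101), and Rxrg was lower, at -0.14, in total RNA (SE 0.06, limma adjusted p = 0.041). Among 8 tested partners of Arc, 1 was higher and 1 lower on polysomes, and 4 higher and 2 lower in total RNA, near the shares of all probe sets. Dlg4, the postsynaptic scaffold PSD-95, was lower, at -0.73, in total RNA (SE 0.11, limma adjusted p = 7.34e-05), Gria2, an AMPA receptor subunit, was higher by 0.47, and Cacng2, an AMPA receptor auxiliary subunit, fell by 0.61 on polysomes.

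Cell type markers moved with the injury in the same samples. Of 9 neuron markers, 2 were higher and 2 lower on polysomes, and 6 higher and 2 lower in total RNA, where Syt1 was at -0.94, Rbfox3 at -0.83, Slc17a6 at 0.39 and Nefl at 0.18. Their mean log2 level in total RNA overlapped, at 11.22 to 11.31 on injured and 11.225 to 11.33 on sham arrays, while their summed linear signal, which the brightest probe sets dominate, was 50247 to 52647 on injured and 44100 to 46757 on sham arrays. Of 7 tested neutrophil and monocyte markers 3 were higher and 1 lower in each fraction, although Cxcr2, called higher on polysomes, and Mpo, called lower in total RNA, were at background there in injured and sham cord alike. Their summed linear signal in total RNA, which the brightest probe sets also dominate, was 4241 to 6982 on injured and 2489 to 3142 on sham arrays. Ccr2 and Mpo were at background in both groups. S100a9, a neutrophil calcium-binding protein, was higher by 1.59 and S100a8 by 1.37 in total RNA. On polysomes S100a8 was higher by 0.97 and S100a9 by 0.95, while Lyz2 was lower, at -1.04 (limma adjusted p = 2.63e-05). Of 6 microglia markers 4 were lower in each fraction. Of 6 astrocyte markers, 2 were higher and 3 lower on polysomes, and 4 were higher in total RNA. Of 6 endothelium markers, 2 were lower on polysomes, and 2 were higher and 2 lower in total RNA. Of the oligodendrocyte markers only Mog was called, at -0.75 on polysomes. The part of these cell types in the members' differences was not tested.

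After each fraction was centred on the mean of its 6 arrays, the genes most like each member over the 12 arrays were found by Pearson's r, as a description in which all points share the same 12 libraries and the injury itself. Egr1 was closest to Plscr1 (0.99), Fos (0.99) and H6pd (0.98). Ier3 was closest to Arfgap3, Tfpi2 and Srsf2 (0.99 each), and Maff to Zfp871, Serpina3n and Hspb1 (0.99 each). Arc was closest to Fgfr2, Llgl1 and Hcn2 (0.98 each), and Ier2 to Rdh10 (0.98), Sertad1 (0.97) and Lif (0.96). Btg2 was closest to Appbp2 (0.96), Znfx1 (0.95) and Efl1 (0.95). Kcna7 for Egr3, at 0.96, and Arntl2 for Nr4a3, at 0.95, were near the values of Btg2. Lower values were those of Ndst2 for Nr4a1, at 0.91, and Faap24 for Nr4a2, at 0.87.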

How the data were processed

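Mouse spinal cord RNA was measured on 12 Affymetrix arrays, 3 in each of 4 groups, after one-cycle biotin labelling of 3 µg of polysome-bound or 5 µg of total RNA, per the labels' protocols. The deposited values, 1 per probe set and array from 5.26 to 14.65, were read as log2 expression values from their range, and were used unchanged; how the authors corrected background and normalized is not given in the sources used here. Of 22690 probe sets, 20380 named 1 gene in the platform annotation, 691 several and 1619 none or a control. The 16555 that passed percentile 25 of an array, on 3 arrays or more, were tested.

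Differences were tested with limma 3.58.1 (R 4.3.3) as a means model of the groups, residual df 8, moderated with an intensity trend. P-values were two-sided and adjusted by Benjamini-Hochberg over the 16555 probe sets, and those under 0.05 were called. The 5 comparisons set injured against sham cord within a fraction, tested the interaction, and set polysome-bound against total RNA within a cord. The number of arrays limits the precision. A gene at or under the highest of 27 absent controls on all arrays of a group got a bound or no fold. The members and lists were chosen with earlier results of these data known.

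The text names every member, at most 4 genes per list and comparison, by adjusted p, and for each member the 3 genes with the highest r, by which Fos is named. The lists were the EGR family and its corepressors, upstream kinases and factors, other immediate early genes, BTG and TOB proteins with deadenylases, small MAF partners, RXR genes, Arc partners and cell type markers.

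Replicate numbers are shared by the groups. Deviations from the group means of equal-numbered samples correlated across probe sets between polysome-bound and total RNA at 0.19, 0.17 and 0.14 in sham cord and at -0.09, 0.06 and 0.04 in injured cord, so the numbers were taken to pair the fractions of the sham cord only, and this pairing comes from the data and not from the labels.

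The procedure was tested on simulated data for injured against sham in total RNA over 16555 probe sets. It recovered 34% of differences of 0.25, 90% of 0.5, 94% of -0.5 and 100% of 1, with 11 false calls among 170. Only 50 probe sets were changed at each size, whereas 59.8% of all probe sets were called in the data. These shares recovered and false calls therefore do not carry over to the calls made here. Promoters were RefSeq sequences of GRCm38.p6. The alternatives were other filters, 1 value per gene, quantile normalization over 12 arrays or within a fraction, centring on array medians, other moderation, array weights, only the compared groups, replicate blocks and leaving out each array; centring on the 18 hybridisation controls and pairing within the sham arrays were added after seeing the data.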

Additional observations from a re-analysis of the deposited data

Results flagged for a closer look

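In 5 members the injury change on polysomes differed from that in total RNA by the interaction test (limma, adjusted over 16555 probe sets). Ier3 gave -0.999, from injury changes of 0.55 on polysomes and 1.55 in total RNA. Egr1 gave -0.56 and Maff -0.41, so each of these 3 genes rose by less on polysomes. Nr4a3 gave 0.26 and Egr3 0.20, with injury changes near 0 on polysomes and small differences in total RNA that were negative as deposited and positive with arrays scaled to the hybridisation controls. The Ier3 and Maff calls held in all 24 alternatives. Those of Egr1, Egr3 and Nr4a3 were lost in 10 of 24, 9 of 23 and 1 of 23. Probe sets as bright as Egr1 had a median interaction of -0.32, and Egr1 lay at percentile 19.7 among them. Over all probe sets, 37% were called below 0 and 13.5% above 0 in this test, 50.5% in all, so a call by itself was common. The Gapdh 3′ minus 5′ difference of the injured arrays was also higher, at 2.83 on polysomes and 1.40 in total RNA, against 0.87 and 0.23 on the sham arrays, and its part in these differences was not tested.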

How the results depend on the processing

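The rises of Ier3, Egr1, Maff, Ier2 and the Btg2 probe set 1448272_at in total RNA, and of Ier3, Maff and both Btg2 probe sets on polysomes, kept direction and call under every alternative that gave a value, as did the Ier3 and Maff interactions. In total RNA 7 members were higher and 3 lower; the filter at the array median left 8 members and 1 lower. Centring on the hybridisation controls called 94.1% of all probe sets in total RNA and 78% on polysomes, with 11 members higher and 0 lower in each, and turned Arc (0.15), Nr4a3 (0.37), Egr3 (0.36) and Nr4a2 1450749_a_at (0.50) in total RNA and Nr4a2 1450749_a_at (0.41) on polysomes; the cause was not tested. Of all calls as deposited, 62.5% were higher in total RNA, 30.4% on polysomes, 26.8% in the interaction, and 14.8% and 22.9% for polysome against total RNA in injured and sham cord. These shares were 51%, 49.2%, 47.8%, 53.3% and 53.8% after quantile normalization, 62%, 52.1%, 42%, 65.9% and 68.5% after median centring, and 98.8%, 96.9%, 7.56%, 17.1% and 35.6% after control centring. Nr4a1 in total RNA was called with the replicate block as a fixed term (limma adjusted p = 0.0445) and with array weights (limma adjusted p = 0.0291). It was also called with control centring, at a log2 difference of 0.708. Quantile normalization ended the Nr4a3 call in total RNA and, like median and control centring, called it higher on polysomes.

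In the interaction, the 2 members above 0 (Egr3, Nr4a3) became 0 under the median filter, which left neither in the test, and 0 under control centring, and 1 to 2 without single arrays. The Egr1 interaction ranged from -0.73 to -0.44 without single arrays. Over all 24 alternatives it came as near to 0 as -0.22, and its call was lost in 10 of them (limma adjusted p up to 0.35).

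For polysome against total RNA in injured cord (0 higher, 11 lower), the median filter left 7 lower, quantile normalization over 12 arrays gave 3 higher and 2 lower, median centring 5 and 1, and 1 was higher with quantile normalization within fractions, control centring, the replicate block as a fixed term, and without some single arrays (0 to 1). Quantile normalization turned Btg2 1416250_at (0.18), Ier2 (0.21), Nr4a1 (0.056), Arc (0.13), Nr4a3 (0.089) and Nr4a2 (0.06 and 0.22), and median centring the same probe sets (0.21, 0.25, 0.15, 0.13, 0.11, 0.086 and 0.30). In sham cord (1 higher, 9 lower), the median filter left 5 lower, quantile normalization gave 5 higher and 3 lower, median centring 6 and 3, and control centring 2 and 5. There 2 were higher with array weights, with only the compared groups, with the replicate block within the sham arrays, and 1 to 2 without single arrays. Quantile normalization turned Ier2 (0.30), Arc (0.07), Maff (0.30) and Nr4a2 (0.043 and 0.40), and median centring Ier2 (0.29), Nr4a1 (0.10), Arc (0.18), Maff (0.20) and Nr4a2 1450750_a_at (0.32). Median centring shifts all differences between fractions alike. With the replicate block within the sham arrays, Ier3 and Ier2 were called as well, and no called member was lost. Signal near background limits Nr4a2 1450750_a_at and Nr4a3 1421079_at.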
